A study of Mus musculus with 4 samples.

Results

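The cells described here are a set of stromal fibroblasts from mouse eyes marked by RNA of at least 3 of 5 genes, among them the growth factor Pgf and the protease Pappa2; a member need not hold both. They were chosen in 2 steps from 36701 columns of a single-cell count matrix, where a column is the RNA of 1 droplet. A column first had to hold at least 3 of 6 general fibroblast genes (Col1a1, Col1a2, Dcn, Lum, Pdgfra and Col3a1), which 13033 columns did. It then had to hold at least 3 of the 5 genes Pappa2, Pgf, Angpt1, Edn3 and Inmt, and more of these than of either of 2 other sets of 5. Those 2 sets were Dpt, Pi16, Clec3b, Mfap5 and Tnxb (set A) and Myoc, Chil1, Ecrg4, Itgbl1 and Chad (set C). The rule found 2508 members, 375 in aged CNV, 502 in aged control, 796 in young CNV and 835 in young control eyes. The same rule applied to the other sets gave 2904 set A fibroblasts and 2043 set C fibroblasts, against which the members are compared below.

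All mice were wild type. Aged mice were over 18 months old and young mice 6 to 8 weeks old. In the CNV groups, choroidal neovascularization (growth of vessels from the choroid) was induced by laser photocoagulation at 532 nm with 200 mW for 0.15 s on spots of 100 µm, and the eyes were taken 3 days later; the control groups had no lesions. Choroid with sclera and retina were digested apart with papain, rods were depleted from the retina with an antibody to CD73, and both suspensions were mixed for a 10x Genomics Chromium run. Each group is 1 library, so no difference between groups can be set against replicate spread. The labels do not say how many animals a library holds, and choroid and sclera were not separated.

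Fibroblasts build and remodel the collagen matrix of the sclera and choroid, and they also release growth factors to the vessels, nerves and pigment cells beside them. Placental growth factor (Pgf) binds VEGF receptor 1, the product of Flt1, and is known for its part in pathological vessel growth in the eye. Pappa2 is a secreted protease that cuts the insulin-like growth factor binding proteins Igfbp3 and Igfbp5. Angpt1 is the ligand of the endothelial receptor Tek (Tie2), Edn3 is an endothelin that acts mainly on Ednrb and is known for its role in melanocyte development, and Inmt is a methyltransferase of indole amines.

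Members had a median of 8071 UMIs (unique molecular identifiers, 1 per captured RNA molecule) in aged CNV, 8154 in aged control, 8331 in young CNV and 7606 in young control eyes. Set A fibroblasts were deeper, with medians from 8638 to 13635 UMIs over the libraries, and set C fibroblasts had medians from 10782 to 14551.5. A total of 248 columns shared a cell barcode with a column of another library, 21 of them members, and 0 pairs of members shared one. Rod RNA differed strongly between libraries: at least 3 of 6 rod markers were found in 11 aged CNV, 21 aged control, 59 young CNV and 468 young control members. At least 3 of 6 macrophage markers were found in 28, 7, 112 and 13 members in that order. Beside results that free RNA could touch, the level in rod columns, which should lack fibroblast genes, is therefore given. Rod columns were called only among columns with fewer than 3 of the 6 fibroblast genes. Their level can therefore understate free fibroblast RNA, here and below.

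The 5 genes of the rule are described first, without tests, because they chose the members. Levels are counts per 1000000 UMIs (CPM). Pappa2 stood at 233 CPM (exact Poisson 95% interval 217 to 249) in aged CNV members, 471 (452 to 492) in aged control, 94.3 (87.9 to 101) in young CNV and 153 (144 to 162) in young control members. It was high in the aged libraries and, at each age, lower in the CNV library than in its control. Such intervals cover counting error only, here and below. Pgf was ordered otherwise, with 249 CPM (233 to 266), 395 (377 to 414), 466 (452 to 481) and 607 (590 to 625) in the same order of libraries. Both young libraries lay above both aged ones, and each CNV library below its control.

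Edn3 followed the order of Pgf, with 557 CPM in aged CNV, 726 in aged control, 877 in young CNV and 1139 in young control members. Angpt1 stood at 942, 1128, 578 and 821 CPM in that order, highest in aged control members. Inmt stood at 323, 200, 124 and 128 CPM and was the gene of the 5 with its highest level in aged CNV members. Among members, 47.7% of aged CNV, 55.4% of aged control, 33.8% of young CNV and 42.3% of young control columns held a Pappa2 UMI, and 71.2%, 84.1%, 93.7% and 95.6% held a Pgf UMI. In rod columns Pappa2 ranged from 0.352 to 1.48 CPM and Pgf from 1.62 to 5.93 CPM over the libraries. The most frequent combination was Pgf, Angpt1 and Edn3 alone, in 676 members (27.0%), followed by these with Pappa2 in 538, these with Inmt in 534, and all 5 genes in 327 (13.0%).

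**Figure D1:**
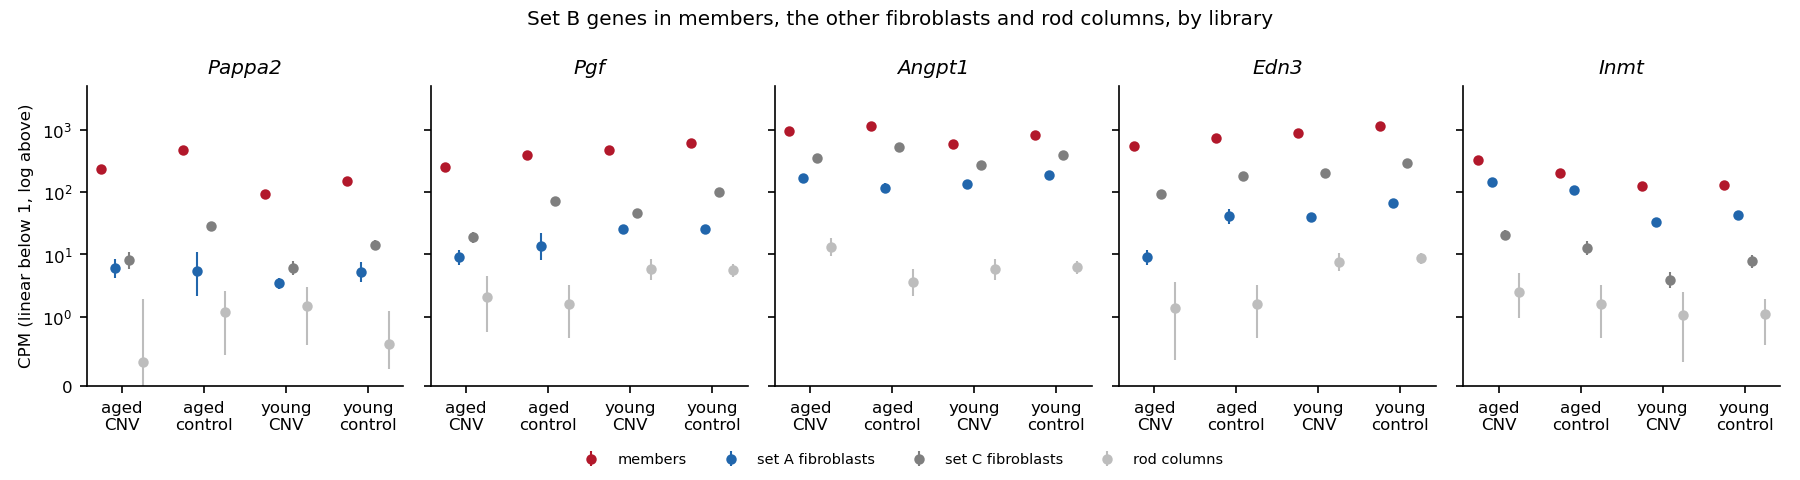
Levels of the 5 genes that chose the members (CPM, log axis that is linear below 1) in each library, with 1 marker type each for the members, set A fibroblasts, set C fibroblasts and rod columns. Pgf stands at 249 CPM in aged CNV, 395 in aged control, 466 in young CNV and 607 in young control members, and at 1.62 to 5.93 CPM in rod columns.

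Members held most of the Pappa2 RNA of each library: 82.1% of its UMIs in aged CNV, 85.3% in aged control, 71.6% in young CNV and 80.4% in young control eyes. Their share of all UMIs was far smaller, 5.16%, 8.98%, 7.72% and 10.7% in that order. For Pgf the members held 58.0%, 66.5%, 56.8% and 65.9% of the UMIs. These shares follow from the rule and are a description.

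At the threshold of the rule, the 1027 members with exactly 3 of the 5 genes had 382 CPM of Pgf and 49.8 CPM of Pappa2. The 445 fibroblast columns with exactly 2, and fewer of sets A and C, had 186 and 22.5 CPM. Lum was found in 88.1% of those just inside and in 64.0% of those just outside. A further 859 columns held at least 3 of the 5 genes but as many of set A or C; their median depth was 14124 UMIs.

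The share of fibroblast columns that were members was 20.2% in aged CNV eyes (375 of 1854, exact binomial interval 18.4% to 22.1%) and 38.4% in aged control eyes (502 of 1306, 35.8% to 41.1%). In young CNV eyes it was 11.2% (796 of 7093, 10.5% to 11.98%), and in young control eyes 30.04% (835 of 2780, 28.3% to 31.8%). The share was thus lower in the CNV library at both ages. The intervals cover the counting of columns in 1 library each and do not test the groups. As a share of all columns the members made up 4.85% in aged CNV and 7.52% in aged control eyes, but 7.32% in young CNV and 7.31% in young control eyes. Fibroblast columns in none of the 3 sets numbered 474, 276, 3879 and 949 in aged CNV, aged control, young CNV and young control eyes. Of these, 41.4%, 20.3%, 64.7% and 40.4% held at least 3 markers of another cell type (pericyte, smooth muscle and rod markers not counted). Without all columns with such markers, the share of fibroblast columns that were members was 21.4%, 38.8%, 16.5% and 33.8% in that order.

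The fibroblast label was checked with Lum, a corneal and scleral proteoglycan, and Pdgfra, the fibroblast PDGF receptor. Lum was found in 96.8% of aged CNV, 95.8% of aged control, 92.5% of young CNV and 90.5% of young control members, and Pdgfra in 92.0%, 89.8%, 81.2% and 77.2%. Both genes are in the rule, so this is a description. Many members also held pericyte RNA, pericytes being the mural cells of capillaries. Of 6 pericyte markers, at least 4 were found in 45 aged CNV, 52 aged control, 179 young CNV and 157 young control members, 433 in all.

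For the genes given here, the 433 columns lay between the 874 members with 0 or 1 pericyte marker and 177 pericyte columns. Rgs5, a pericyte signalling regulator, stood at 2961 CPM in the 433, against 170 CPM in the 874 and 11319 CPM in pericyte columns. The 1201 members with 2 to 3 markers held Rgs5 at 178 CPM and Lum in 97.7% of columns. Rgs5 is 1 of the 6 markers that split the members. Pericyte columns were called only among columns with fewer than 3 of the 6 fibroblast genes. The contrasts in Rgs5, Lum and Pdgfra thus follow in part from the selection and are a description. Lum was found in 74.6% of the 433, against 96.1% of the 874 and 2.82% of pericyte columns, and Pdgfra in 54.7%, 88.1% and 1.13% in that order. Pappa2 stood at 144 CPM in the 433, 189 CPM in the 874 and 0 CPM in pericyte columns. Pgf stood at 332, 560 and 94.7 CPM in that order. The share of columns with a high Scrublet doublet score (over 0.2) was 6.47% in the 433 and 6.41% in the 874. Whether the 433 are single cells with both programmes or droplets with 2 cells was not tested, and results without them are given where they move.

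**Figure D2:**
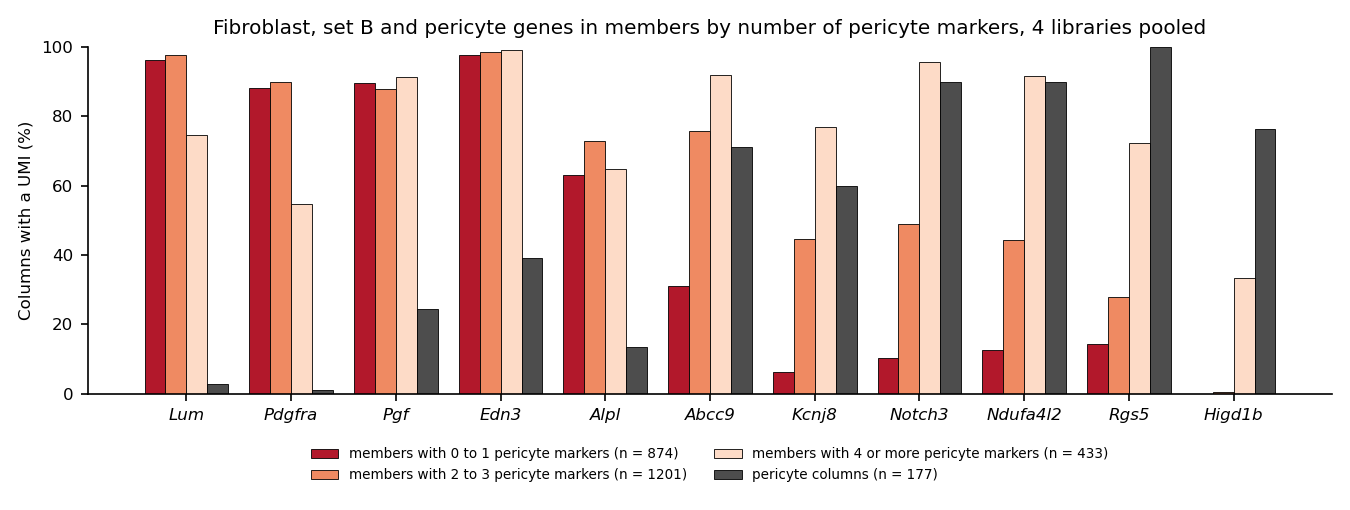
Percent of columns with at least 1 UMI of 11 genes in members with 0 to 1, 2 to 3 and at least 4 pericyte markers and in pericyte columns, libraries pooled. Lum is found in 74.6% of the members with at least 4 pericyte markers and in 2.82% of pericyte columns, and Higd1b, a pericyte marker, in 33.3% and 76.3%.

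Receptors of Pgf, Angpt1 and Edn3 were measured in the members and in other cell types. Flt1 stood at 61.5 CPM in aged CNV, 61.6 in aged control, 150 in young CNV and 176 in young control members, with a UMI in at most 8.3% of members. In endothelial columns it stood at 3428, 5319, 2915 and 3368 CPM, and in rod columns at 34.5 to 59.1 CPM, so the aged members lay close to the level in rods. The neuropilins, co-receptors for VEGF family ligands, were found in nearly every member: Nrp1 had a UMI in 96.0%, 98.4%, 93.6% and 89.8% of members and stood at 827, 945, 629 and 647 CPM, with rods at 9.5 to 24.4 CPM. Tek stood at 4.49, 8.98, 17.8 and 15.3 CPM in members, within or near the 6.99 to 13.7 CPM in rods, but at 185, 230, 133 and 183 CPM in set A fibroblasts. Tek was lower in members than in set A fibroblasts by 4.05 ± 0.38 on the log2 scale (standard error; adjusted p = 0.000831, edgeR's quasi-likelihood test with Benjamini-Hochberg adjustment).

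Of the endothelin receptors, Ednra stood at 166, 149, 158 and 121 CPM in members of aged CNV, aged control, young CNV and young control eyes, and at 29.7, 28.5, 52.3 and 36.2 CPM in set A fibroblasts. Ednrb stood at 35.1, 5.92, 19.6 and 37.9 CPM in members, against 633, 984, 1471 and 1206 CPM in melanocyte columns and 229 to 386 CPM in endothelial columns. Ednrb was thus low in the members, which had the Edn3 RNA, and high in melanocyte columns. Igfbp5, a substrate of Pappa2, stood at 15699, 14955, 7967 and 8976 CPM in members, about as high in both aged libraries and lower in both young ones. Igfbp3, the other substrate, stood at 60.9, 22.6, 71.2 and 72.9 CPM. Kitl, the ligand of the melanocyte receptor Kit, stood at 988, 894, 565 and 664 CPM in members.

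Members were compared with set A and with set C fibroblasts over the 4 libraries as paired blocks, with UMIs summed per class and library. The sorting used genes of the same columns, so any gene that varies with the 21 rule genes had to differ, and the rule genes are left out of the results. At an adjusted p under 0.05 (edgeR's quasi-likelihood test), 1805 of 14250 genes (12.7%) were higher and 2178 (15.3%) lower in members than in set A fibroblasts. Against set C fibroblasts, 1895 of 14459 genes (13.1%) were higher and 1851 (12.8%) lower. All 40 differences named by rule for these comparisons differed in the same direction in 4 of 4 libraries, which the naming rule required.

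Lamc3, a laminin chain, stood at 96.8, 123, 113 and 145 CPM in members of aged CNV, aged control, young CNV and young control eyes, against 2.12, 0.769, 3.27 and 4.39 CPM in set A fibroblasts and 1.98, 1.44, 3.03 and 2.67 CPM in set C fibroblasts. The ranges lay far apart, with log2 differences of 5.14 ± 0.21 from set A and 5.52 ± 0.17 from set C (adjusted p = 9.56e-05 and 3.85e-05, edgeR's quasi-likelihood test). Alpl, tissue-nonspecific alkaline phosphatase, averaged 359 ± 147 CPM in members and 12.03 ± 3.22 CPM in set A fibroblasts (SD, n = 4 libraries). Dcc, a netrin receptor of growing axons, averaged 554 ± 239 CPM in members and 36.0 ± 28.9 CPM in set A fibroblasts. Rod columns held Alpl at 156 to 167 CPM and Dcc at 227 to 422 CPM over the libraries, and bipolar columns held Dcc at 612 to 1910 CPM. Dcc in rods was thus above its level in young control members, and the part of free RNA was not tested. Both were highest in the aged libraries, where Alpl stood at 477 and 493 CPM and Dcc at 804 and 712 CPM in CNV and control members, against 255 and 211 CPM of Alpl and 334 and 365 CPM of Dcc in young CNV and young control members. Emcn, a sialomucin best known from endothelium, averaged 832 ± 88.3 CPM in members and 54.0 ± 9.95 CPM in set A fibroblasts. The 6 endothelial markers, of which Emcn is one, summed to 1015, 833, 1115 and 1064 CPM in members of aged CNV, aged control, young CNV and young control eyes, against 6390, 7674, 6927 and 8212 CPM in endothelial columns.

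Other genes higher in members than in set A fibroblasts included Scube1, Brinp1, Rgs7bp, Zc2hc1c, Tmem37 and Rasd1, with log2 differences from 5.01 for Scube1 to 3.93 for Rasd1. Smooth muscle columns held Rgs7bp at 699 to 1108 CPM over the libraries, against 468 to 727 CPM in members. Pericyte or smooth muscle columns held Rasd1 at 563 to 896 CPM, against 45.5 to 303 CPM in members. In aged control eyes amacrine columns held Brinp1 at 522 CPM, against 355 CPM in members. Tmem37 was steady over the libraries, at 186 ± 6.28 CPM in members and 10.5 ± 3.37 CPM in set A fibroblasts. Lower in members were Adgrd1, an adhesion receptor, at 1.36 ± 0.35 CPM against 269 ± 95.5 CPM in set A fibroblasts, and Col6a6, a collagen VI chain, at 0.913 ± 0.192 against 88.0 ± 9.36 CPM. Kcnc2, Dact2, Emilin2, Lvrn, Sfrp4, Efhd1, Cxcl13 and Cilp were also lower, with log2 differences from -7.37 for Kcnc2 to -6.00 for Cilp.

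Alkal2, a ligand of the receptor kinases Alk and Ltk, led the genes higher in members than in set C fibroblasts. It stood at 112, 130, 133 and 160 CPM in members of aged CNV, aged control, young CNV and young control eyes, and at 2.16, 0, 1.47 and 1.94 CPM in set C fibroblasts. The chemokine Ccl11 (eotaxin) averaged 190 ± 73.0 CPM in members and 3.93 ± 3.48 CPM in set C fibroblasts. Set A fibroblasts held more Ccl11 in young CNV and young control eyes, 291 and 440 CPM against 194 and 138 CPM in members. In aged control eyes pericyte columns held 447 CPM of Ccl11, against 135 CPM in members. The muscle and pericyte filament gene Des averaged 172 ± 7.27 CPM in members, against 10.2 ± 8.16 CPM in set C and 11.3 ± 5.94 CPM in set A fibroblasts. Dach1, P2ry14, Nr2f1, Alpl, Dcc and Rasd1 were higher too. Müller glia columns held Dach1 at 1540 to 2486 CPM over the libraries, against 523 to 722 CPM in members. Pericyte or smooth muscle columns held P2ry14 at 179 to 311 CPM, against 106 to 168 CPM in members. In aged control eyes pericyte columns held Nr2f1 at 652 CPM, against 421 CPM in members. The part of other cell types' RNA in these differences was not tested. Among the genes lower in members were Fmod, a collagen-binding proteoglycan, Comp, a cartilage and tendon matrix protein, and Tnmd (tenomodulin), a tendon protein. Fmod averaged 27.1 ± 7.59 CPM in members and 1382 ± 471 CPM in set C fibroblasts, Comp 8.60 ± 3.80 and 639 ± 75.1 CPM, and Tnmd 7.84 ± 7.55 and 394 ± 174 CPM. Angptl7 had the largest difference of the genes named against set C, 4.80 ± 3.32 CPM in members against 607 ± 380 CPM in set C fibroblasts, a log2 difference of -7.09 ± 0.42 (adjusted p = 0.00022, edgeR's quasi-likelihood test), and Sfrp2, Ooep, Cilp2, Mmp3, Cxcl14 and Matn4 followed.

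**Figure D3:**
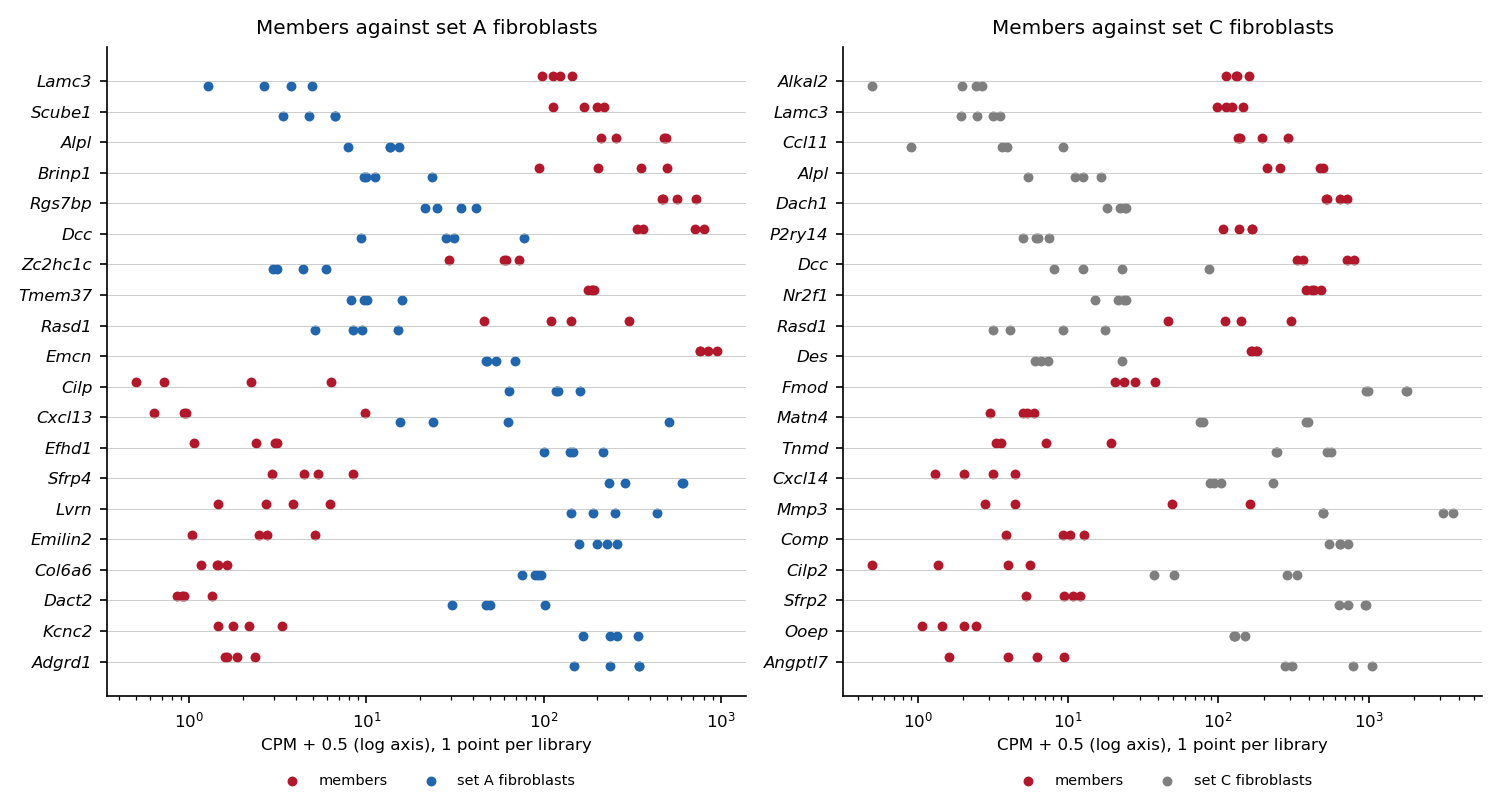
Levels (CPM + 0.5, log axis) of the 20 genes named against set A fibroblasts and the 20 named against set C fibroblasts, 1 point per library for the members and for the other class. Lamc3 stands at 96.8 to 145 CPM in members and under 5 CPM in both other classes.

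Transcription factors of eye and head mesenchyme were higher about as often as lower. Of 45 tested against set A fibroblasts, 14 were higher and 16 lower in members, with a median log2 difference of 0.29, and of 42 tested against set C fibroblasts 16 were higher and 16 lower, with a median of -0.08. The median over all genes tested was -0.01 and 0.01 in the 2 comparisons. Tcf21, a factor of fibroblast and epicardial lineages, averaged 29.6 ± 10.2 CPM in members, 0.808 ± 0.678 CPM in set A and 0.310 ± 0.480 CPM in set C fibroblasts. Foxf2, known from brain pericytes, averaged 93.8 ± 18.3 CPM in members, 7.54 ± 1.74 CPM in set A and 28.0 ± 4.82 CPM in set C fibroblasts. Foxc1, a factor of the anterior eye and meninges, averaged 278 ± 28.1, 87.5 ± 31.8 and 135 ± 21.4 CPM in that order. Scx, the tendon factor, averaged 1.88 ± 1.24 CPM in members and 45.2 ± 19.97 CPM in set C fibroblasts.

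Growth factor genes differed by family. Of 14 VEGF and PDGF ligands and receptors, 4 were higher (Nrp2, Nrp1, Pdgfrb and Vegfb) and 3 lower in members than in set A fibroblasts. Vegfd, a lymphatic growth factor, averaged 4.52 ± 0.725 CPM in members and 81.8 ± 58.6 CPM in set A fibroblasts, a log2 difference of -3.92 ± 0.36 (adjusted p = 0.000758, edgeR's quasi-likelihood test). Kitl averaged 778 ± 197 CPM in members, 91.9 ± 33.0 CPM in set A and 226 ± 64.0 CPM in set C fibroblasts. Of 13 genes of the IGF axis, 3 were higher and 5 lower against set A; Igfbp7 averaged 2013 ± 513 against 601 ± 263 CPM and Igf1 182 ± 59.2 against 573 ± 209 CPM. Of 30 Wnt and BMP genes, 5 were higher and 13 lower; Rspo3, which amplifies Wnt signals, averaged 73.2 ± 24.5 CPM in members and 4.71 ± 1.60 CPM in set A fibroblasts.

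More proteoglycan and elastic fibre genes were lower than higher in members. Of 25 such genes, 2 were higher and 15 lower than in set A fibroblasts (median log2 difference -1.42), and of 24 tested against set C fibroblasts 2 were higher and 14 lower (-0.89). Fbn2, a fibrillin, was an exception, at 222 ± 54.2 CPM in members and 33.1 ± 23.1 CPM in set A fibroblasts. Collagens divided, with 9 of 26 higher and 9 lower against set A. Col10a1 averaged 139 ± 57.3 CPM in members and 12.1 ± 11.1 CPM in set A fibroblasts, and Col8a1 593 ± 119 and 124 ± 56.1 CPM. Col12a1, a collagen of tendon and sclera, averaged 105 ± 43.8 CPM in members and 2014 ± 513 CPM in set C fibroblasts.

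Chemokine and cytokine genes divided against set A, with 6 of 24 higher and 8 lower, while against set C 10 of 23 were higher and 1 lower. Cxcl12, which retains and attracts Cxcr4-bearing cells, stood at 1711, 1409, 989 and 813 CPM in members of aged CNV, aged control, young CNV and young control eyes and at 555, 287, 165 and 94.3 CPM in set C fibroblasts. Cxcl10, an interferon-induced chemokine, averaged 199 ± 76.5 CPM in members and 17.8 ± 17.5 CPM in set C fibroblasts. Ackr3, a scavenger of Cxcl12, averaged 9.81 ± 5.90 CPM in members and 417 ± 75.2 CPM in set A fibroblasts. All 6 pericyte markers were higher in members than in set A fibroblasts (median log2 difference 2.75). Without columns that held at least 4 pericyte markers, all 5 of those still tested were higher.

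For the 4 comparisons between libraries, a gene counts as different where the ratio of members' CPM was at least 2-fold in either direction and at least 20 UMIs were found over both libraries. With 1 library per group there is no test, and a ratio is given with its exact interval from the counts. In young eyes, 570 of 14673 genes (3.88%) were at least 2-fold higher and 894 (6.09%) at least 2-fold lower in CNV than in control members. In aged eyes, 808 of 13616 (5.93%) were higher and 422 (3.1%) lower, so 65.7% of these were higher. Without columns that held at least 3 markers of another cell type the counts in aged eyes were 395 and 354 (52.7% higher), and after thinning each column to 2000 UMIs 344 and 316 (52.1% higher). Many such genes belong to other cell types. Of all genes tested in young eyes, 2.07% were higher and at no less than 0.1 of the level of the class with most. Another 1.57% were lower and at no less than that level. In aged eyes these shares of all genes tested were 2.04% and 1.54%.

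In young eyes genes of activated fibroblasts were higher in CNV members. Of 19 measured, 10 were at least 2-fold higher in CNV members and 0 lower, with a median log2 ratio of 1.14 against -0.05 over all genes. Fn1 (fibronectin) stood at 282 CPM (271 to 293) in young CNV members and 16.8 CPM (13.9 to 19.99) in young control members, 16.8-fold higher (14.02 to 20.3). It was 1.996-fold higher in set A and 2.42-fold higher in set C fibroblasts of the same libraries, and in rod columns it stood at 68.9 against 7.78 CPM. Macrophage columns held Fn1 at 416 against 268 CPM, and macrophage markers were at least 2-fold higher for 5 of 6 in young CNV members. Fn1 was thus higher in the CNV library in rods and macrophages too, and the part of free RNA or macrophage RNA in the ratio was not tested. Cthrc1, a secreted protein of healing wounds, stood at 59.7 against 8.38 CPM, 7.12-fold higher (5.46 to 9.43), with rods at 22.2 against 2.16 CPM. The protease inhibitor Timp1 stood at 144 against 26.0 CPM, 5.55-fold higher, with rods at 9.32 against 1.12 CPM.

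Further activated genes were Adam12 at 24.4 against 4.87 CPM, Tnc (tenascin C) at 45.4 against 10.5 CPM and Postn (periostin) at 210 against 73.4 CPM in young CNV and young control members. The contractile genes Acta2 and Tagln stood at 364 against 99.9 and 320 against 81.8 CPM, but at under 0.1 of their level in smooth muscle, and smooth muscle markers moved with them: at least 3 of 6 were found in 54 young CNV and 28 young control members. Without columns that held at least 3 markers of another cell type, 9 of 19 genes were at least 2-fold higher and the median log2 ratio was 0.71. Crosslinking and elastic fibre genes were also higher, 6 of 23 with 0 lower. Lox, which crosslinks collagen and elastin, stood at 256 CPM in young CNV and 46.9 CPM in young control members (5.45-fold, 4.86 to 6.12), Vcan (versican) at 44.4 and 9.60 CPM, and Eln (elastin) at 316 and 116 CPM. Of 25 collagens 7 were higher, among them Col6a3 at 132 against 32.7 CPM and Col10a1 at 176 against 53.3 CPM, and 0 were lower.

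Genes named by rule for young eyes included Il1rn, the interleukin 1 receptor antagonist, at 37.1 CPM in CNV and 1.62 CPM in control members (22.9-fold, 12.9 to 44.8). Il1rn was 2.43-fold higher in set A and 3.59-fold higher in set C fibroblasts of the same libraries. Nav3, a microtubule-binding protein, stood at 223 against 18.3 CPM, Ptprn, a secretory granule phosphatase, at 18.3 against 0.811 CPM, and Megf11 at 25.6 against 2.84 CPM. Rod columns held Nav3 at 17.6 against 22.3 CPM and Megf11 at 0.847 against 3.28 CPM, so both were higher in members where rods had less. Ptprn stood at 8.69 against 7.95 CPM in rods, above its level in young control members, and cone columns had most of it. Cxcl1, a neutrophil chemokine, was 2.38-fold lower (2.27 to 2.50), at 285 CPM in young CNV and 679 CPM in young control members. Atf3 and Hspa1a, a stress factor and a heat shock protein, were lower by 2.34-fold and 2.31-fold, and of 20 immediate early and heat shock genes 4 were at least 2-fold lower with a median log2 ratio of -0.69. Ppl and Ceacam1, epithelial genes, stood at 4.98 against 22.2 CPM and 10.9 against 31.2 CPM. Keratin epithelium markers moved with them, 5 of 6 at least 2-fold lower in young CNV members.

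In aged eyes interferon genes were among those higher in CNV members. Of 25 interferon-stimulated and MHC class I genes, 14 were at least 2-fold higher in aged CNV than in aged control members and 0 lower, with a median log2 ratio of 1.04 against -0.04 over all genes. Ifit3, an antiviral protein, stood at 380 CPM (360 to 401) in aged CNV and 62.2 CPM (55.2 to 69.9) in aged control members, 6.10-fold higher (5.37 to 6.96). Markers of other cell types were higher in the same comparison, at least 2-fold for 6 of 6 macrophage, 6 of 6 melanocyte and 5 of 5 keratin epithelium markers. Without columns that held at least 3 markers of another type, 13 of the 25 interferon genes were at least 2-fold higher, with a median log2 ratio of 1.14. Macrophage columns held Ifit3 at 174 against 17.8 CPM in aged CNV and aged control eyes, and melanocyte columns held more Ifit3 than the members in both. Young members lay between, at 261 CPM in CNV and 148 CPM in control eyes. Ifit3 was 3.59-fold higher in set A and 7.23-fold higher in set C fibroblasts of aged eyes, and rods held 86.9 against 8.09 CPM. Irf7, a transcription factor of the interferon response, stood at 66.0 against 12.9 CPM in aged CNV and aged control members, with rods at 36.3 against 11.9 CPM. Reads of Ifit3 and its close copy Ifit3b, which stood at 90.9 against 16.7 CPM, may be split between them.

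Ifi27l2a stood at 653 against 172 CPM, Ifit1 at 204 against 58.9 CPM, Iigp1 at 279 against 89.6 CPM, Bst2 at 276 against 102 CPM and Isg15 at 187 against 83.9 CPM in aged CNV and aged control members. The antigen presentation genes H2-K1 and B2m stayed within 2-fold: H2-K1 stood at 646 against 500 CPM and B2m at 493 against 499 CPM. The count was 13 to 15 of 25, with 0 lower, when columns with other cell types' markers, pericyte markers or high doublet scores were left out, when columns were thinned, or when at least 4 of the 5 rule genes were asked for. In young eyes 1 of the 25, Irf7, was at least 2-fold higher in CNV members, with a median log2 ratio of 0.50. Whether the laser ratio differed between ages was not tested, and the control level differed: 7 of the 25 genes were at least 2-fold lower in aged control than in young control members, Ifit1 at 58.9 against 264 CPM among them.

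The promoters of these genes are shown because 14 of 25 were at least 2-fold higher in the same comparison. Interferon-stimulated genes are classically bound by the factor ISGF3 at a repeat of GAAA letters. The motif searched was GAAANNGAAA on either strand, from 250 bases before to 50 after the start, in RefSeq promoters of build GRCm38.p6. It was found in 1079 of 27025 genes with an entry (3.99%). Of the 14 interferon genes at least 2-fold higher in aged CNV members, 11 had an entry and 9 held the motif (81.8%); of the other 11, all with an entry, 4 did (36.4%). The list was chosen as interferon genes, so a share above that of all genes follows from the choice. It also mixes kinds of genes. Of its antigen presentation genes, H2-K1, H2-D1, H2-Q4, Psmb8, Psmb9 and Tap1 held no motif, while B2m and H2-T23 did. Whether the motif goes with the ratio in members was not tested. A match is a description of letters and not a binding site. Below are the 160 bases before the start of 3 of the 14 genes, 5′ to 3′ on the gene's strand, with the motif or its reverse complement in capitals, in Isg15 as 3 overlapping copies. They lie at chr19:34583369-34583528 (plus strand, Ifit3), chr19:34640729-34640888 (plus strand, Ifit1) and chr4:156200819-156200978 (minus strand, Isg15).
Ifit3: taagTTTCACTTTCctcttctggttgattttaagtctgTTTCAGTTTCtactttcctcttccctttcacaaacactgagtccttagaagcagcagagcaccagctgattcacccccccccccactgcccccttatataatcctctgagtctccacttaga
Ifit1: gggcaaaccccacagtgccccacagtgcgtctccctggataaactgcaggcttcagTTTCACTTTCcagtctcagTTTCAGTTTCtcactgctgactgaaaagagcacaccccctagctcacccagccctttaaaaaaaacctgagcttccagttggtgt
Isg15: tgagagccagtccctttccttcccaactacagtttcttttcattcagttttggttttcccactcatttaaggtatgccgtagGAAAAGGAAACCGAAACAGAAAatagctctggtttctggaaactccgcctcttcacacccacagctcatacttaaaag

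Other genes also differed between aged CNV and aged control members. Il1rn stood at 208 CPM in aged CNV and 34.0 CPM in aged control members, 6.13-fold higher (5.15 to 7.34), and Rsad2, the antiviral protein viperin, at 84.8 against 15.1 CPM. The Il1rn ratio was 2.84 (1.24 to 7.98) in set A and 1.29 (1.03 to 1.62) in set C fibroblasts. Neutrophil columns had most Il1rn in both aged libraries, and their part in the ratio was not tested. Slit2, an axon guidance ligand, stood at 94.6 against 15.3 CPM, but rods held 220 against 39.2 CPM and bipolar columns had most of it. A Slit2 UMI was found in 8.27% of aged CNV and 7.37% of aged control members, so the share of members with it was nearly the same. Of 24 chemokine and cytokine genes 9 were at least 2-fold higher and 0 lower, though without columns that held other cell types' markers it was 5 of 20. Il33, an alarm cytokine, stood at 195 against 64.0 CPM and Ccl11 at 291 against 135 CPM. Lower in aged CNV than in aged control members were Gdf10, a BMP family ligand, at 60.3 against 192 CPM (3.17-fold, 2.73 to 3.70), Grin3a, a glutamate receptor subunit, at 26.1 against 99.5 CPM, and Kazald1 at 47.4 against 147 CPM. Ephb1 and Egr3 stood at 53.3 against 156 CPM and 16.3 against 52.1 CPM.

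Activated fibroblast genes were divided in aged eyes, with 4 of 19 at least 2-fold higher and 2 lower in CNV members (median log2 ratio 0.28). Fn1 stood at 85.6 CPM in aged CNV and 45.4 CPM in aged control members, a ratio of 1.89 (1.58 to 2.26), and Timp1 at 148 against 63.3 CPM. The matricellular genes Ccn2 and Ccn1 stood at 892 against 1932 CPM and 85.0 against 171 CPM. Spp1 (osteopontin) stood at 2059 CPM in aged CNV and 528 CPM in aged control members. It was 51.6-fold higher in set A fibroblasts of the same libraries, and markers of macrophages, a known source of Spp1, were at least 2-fold higher for 6 of 6 in aged CNV members.

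**Figure D4:**
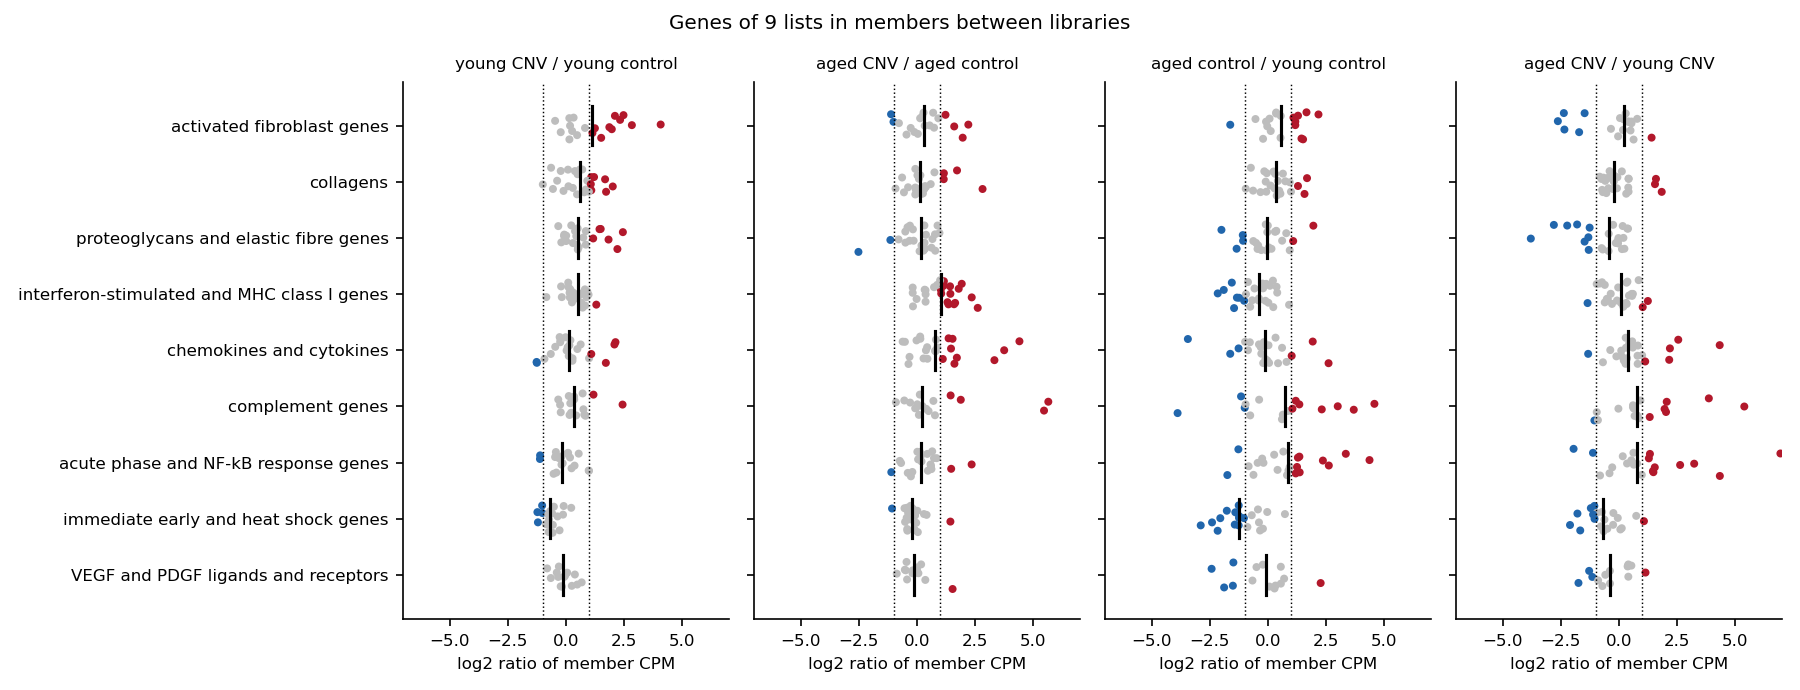
Log2 ratios of the members' CPM for the genes of 9 lists in the 4 comparisons between libraries, 1 point per gene, with a bar at the list's median and dotted lines at a 2-fold ratio. Interferon-stimulated and MHC class I genes have a median of 1.04 for aged CNV over aged control members, and activated fibroblast genes 1.14 for young CNV over young control members.

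Between control eyes of the 2 ages, 1164 of 14272 genes (8.16%) were at least 2-fold higher and 1150 (8.06%) lower in aged members, so 50.3% of these were higher. With edgeR's TMM scaling the counts were 953 and 1406 (40.4% higher). Of all genes tested, 4.61% were higher and 4.34% lower and at no less than 0.1 of the level of the class with most of them. Complement and acute phase genes were among those higher. Of 16 complement genes 7 were at least 2-fold higher and 3 lower (median log2 ratio 0.74 against 0.09 over all genes), the 3 lower ones all at under 0.1 of their level in another class. C3, the central complement protein, stood at 190 CPM (177 to 203) in aged control and 7.98 CPM (6.07 to 10.3) in young control members, 23.8-fold higher (18.2 to 31.5). The ratio was 2.72 in set A and 9.27 in set C fibroblasts, and rods held 3.03 against 3.11 CPM. C4b stood at 261 against 32.7 CPM and Masp1 at 45.1 against 3.52 CPM.

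Of 22 acute phase and NF-kB response genes, 9 were at least 2-fold higher and 2 lower in aged control members. Serpina3n, a serine protease inhibitor, stood at 412 CPM in aged control and 13.0 CPM in young control members, 31.7-fold higher (25.8 to 39.4). A UMI of it was found in 66.1% of aged control and 6.1% of young control members. A2m stood at 222 against 43.3 CPM. Csmd1, a membrane protein with complement control domains, stood at 506 against 12.7 CPM, 39.8-fold higher (32.4 to 49.5). Csmd1 was 6.65-fold higher in set A and 27.0-fold higher in set C fibroblasts, at 1016 and 617 CPM in aged control eyes. Il1rn stood at 34.0 against 1.62 CPM, with ratios of 1.24 (0.412 to 3.16) in set A and 18.9 in set C fibroblasts. Adamdec1, a secreted metalloprotease, stood at 42.5 against 2.57 CPM. Adamdec1 was at most 7.69 CPM in set A and 1.80 CPM in set C fibroblasts of any library.

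Melanocyte and keratin epithelium markers were at least 2-fold lower in aged control than in young control members for 6 of 6 each, and their part in the genes given next was not tested. Lower in aged control members were immediate early and heat shock genes, 12 of 20 with 0 higher (median log2 ratio -1.24). Fos stood at 2266 CPM in aged control and 6109 CPM in young control members, and Hspa1a at 26.3 against 195 CPM. Both were also lower in set A and set C fibroblasts of aged control eyes, with Hspa1a ratios of 0.232 and 0.151. Hspa1a and its near-identical copy Hspa1b may share reads. Crabp2, a retinoic acid carrier, stood at 0.876 CPM (4 UMIs) in aged control and 32.2 CPM in young control members, 36.7-fold lower (14.2 to 136), against a ratio of 0.462 (0.351 to 0.600) in set C fibroblasts and 6.92 against 6.25 CPM in set A fibroblasts. Hrk, a cell death gene, stood at 1.31 against 15.7 CPM. The serotonin receptor Htr1f and the adhesion protein Cntn3 had 1 UMI each in aged control members, against 10.4 and 9.06 CPM in young control members, with ratios of 0.0210 (0.000526 to 0.121) and 0.0242 (0.000604 to 0.139). Htr1f was also found in rods, at 0.202 against 32.2 CPM.

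After laser, 1564 of 14317 genes (10.9%) were at least 2-fold higher and 984 (6.87%) lower in aged CNV than in young CNV members, so 61.4% of these were higher. With edgeR's TMM scaling the counts were 1331 and 1261, with 51.4% higher. Of all genes tested, 5.11% were higher and 4.84% lower and at no less than 0.1 of the level of the class with most of them. Complement genes were again higher, 6 of 17 with 1 lower, and acute phase genes, 9 of 21 with 2 lower (median log2 ratio 0.77 for both). C3 stood at 206 CPM in aged CNV and 14.2 CPM in young CNV members, 14.5-fold higher (11.9 to 17.7), and Serpina3n at 465 against 38.6 CPM, 12.03-fold higher (10.7 to 13.6). In set A and set C fibroblasts the C3 ratio was 3.03 and 4.76, and the Serpina3n ratio 14.6 and 8.23. C7, a terminal complement component, stood at 20.8 against 0.926 CPM and Adamdec1 at 53.3 against 1.27 CPM. Saa3, an acute phase protein, stood at 42.4 CPM in aged CNV members and 0.347 CPM (3 UMIs) in young CNV members, a ratio of 122 (41.0 to 599). Macrophage columns held Saa3 at 260 against 10.9 CPM and rods at 26.8 against 2.12 CPM, and their part in the ratio was not tested.

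Of 23 proteoglycan and elastic fibre genes, 8 were at least 2-fold lower and 0 higher in aged CNV than in young CNV members. Of 25 collagens, 3 were at least 2-fold higher and 0 lower. Smooth muscle markers were at least 2-fold lower for 5 of 6, and their part in these counts was not tested. Aspn (asporin) stood at 15.2 CPM in aged CNV and 106 CPM in young CNV members, 6.99-fold lower (5.31 to 9.37). The Aspn ratio of aged CNV over young CNV was 0.353 in set A and 0.691 in set C fibroblasts. Pericyte columns had most Aspn in both libraries. Pericyte markers were at least 2-fold lower for 3 of 6 and higher for 1 in aged CNV members, and their part was not tested. Mfap4 stood at 55.0 against 258 CPM and Eln at 90.4 against 316 CPM. H19, an imprinted noncoding RNA of fetal growth, stood at 2.53 CPM in aged CNV and 148 CPM in young CNV members, 58.4-fold lower (30.7 to 128), with rods at 1.06 against 15.3 CPM. The H19 ratio of aged CNV over young CNV was 0.180 in set A and 0.128 in set C fibroblasts. In control eyes H19 stood at 5.26 CPM in aged and 26.0 CPM in young members. Bdnf, a neurotrophin, stood at 0.842 against 13.7 CPM and Crabp2 at 0.842 against 16.0 CPM. Htr1f stood at 0 against 7.87 CPM, 9.34-fold lower with 3 counts in place of 0 and with a lower interval limit of 7.40-fold. In rods Htr1f stood at 0.704 against 18.6 CPM.

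**Figure D5:**
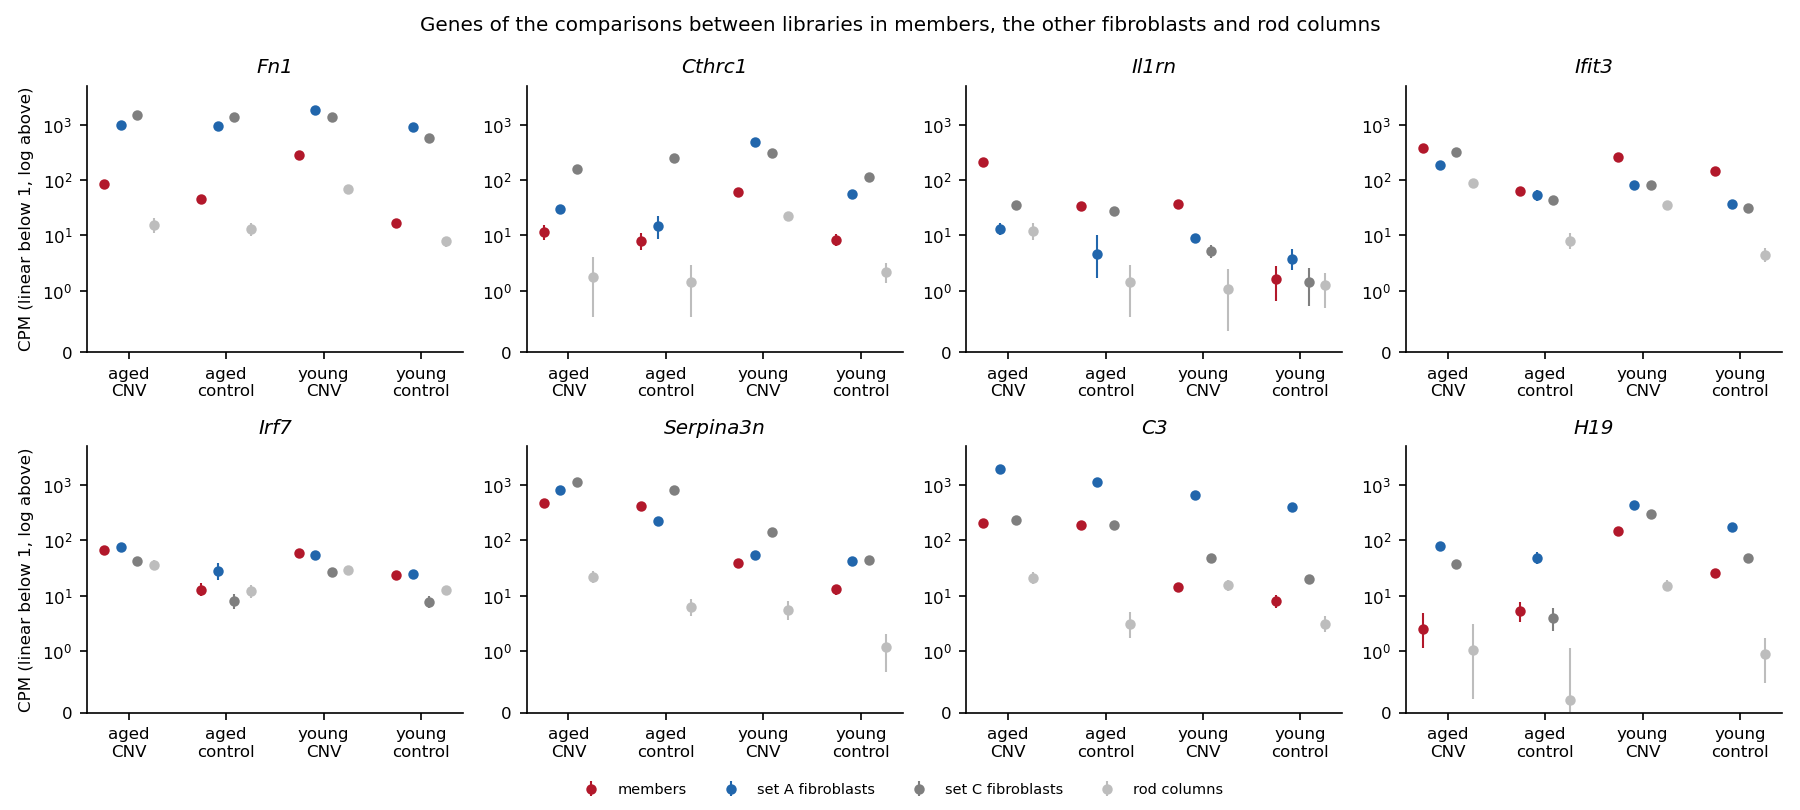
Levels (CPM) of 8 genes named in the comparisons between libraries, in each library, for members, set A fibroblasts, set C fibroblasts and rod columns. In members Fn1 is highest in young CNV eyes (282 CPM), Ifit3 in aged CNV eyes (380 CPM), and C3 is at 206 and 190 CPM in aged CNV and aged control eyes against 14.2 and 7.98 CPM in young ones.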

How the data were processed

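The authors deposited raw counts, whole UMIs per gene and column, in 1 matrix of 24783 genes and 36701 columns. The submitters' processing notes name Cell Ranger, Seurat 4.1.1 and build mm10. Neither the version of Cell Ranger nor the annotation is given in the sources used here. Column prefixes gave the library, with e read as aged because it was the only other code; 0 columns of values were left unused. No further filter was applied. Members, gene lists and comparisons were chosen with earlier results of these data known. CPM are summed UMIs of a gene per 1000000 UMIs of the class and library.

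Between libraries, ratios carry exact conditional binomial intervals and levels exact Poisson intervals (95%), with 3 counts in place of 0. Members were tested against set A and set C with edgeR 4.0.16 (TMM, quasi-likelihood, library as block, Benjamini-Hochberg at 0.05). The same library's classes share 1 suspension and run, which the block takes up. Both steps were tested on simulated data with known changes. Named genes against other classes were the 10 per side with the largest log2 difference past the threshold, the same sign in 4 of 4 libraries and at least 50 CPM in the higher class. Between libraries they were the 5 per side whose interval lay farthest from 1, with at least 20 UMIs, UMIs in 5% of the higher library's members and at least 0.1 of the level of the class with most. Rule, mitochondrial, ribosomal and sex-linked genes and unnamed models were left out. From each list, up to 4 genes were named by size or as a ligand or receptor. Other cell types are columns with fewer than 3 of the 6 fibroblast genes, called by 6 markers each. Python 3.11.15, scanpy 1.11.5 (Scrublet) and R 4.3.3 were used; alternatives included DESeq2 1.42.0.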

Additional observations from a re-analysis of the deposited data

Results flagged for a closer look

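For Eln and H19 the laser ratio in members ran in opposite directions at the 2 ages, and with 1 library per group the difference was not tested. Eln had a log2 ratio of -1.14 in aged eyes (90.4 CPM in aged CNV and 199.8 CPM in aged control members) and 1.44 in young eyes (316 CPM in young CNV and 116 CPM in young control members). H19 had a log2 ratio of -1.06 in aged eyes (9 UMIs in aged CNV and 24 in aged control members, an interval that includes no difference) and 2.51 in young eyes (1275 and 192 UMIs in young CNV and young control members). In set A fibroblasts the log2 ratio of Eln was 0.68 in aged and 0.10 in young eyes, and that of H19 0.69 and 1.33. In set C fibroblasts the log2 ratio of Eln was -0.41 in aged and 0.82 in young eyes, and that of H19 3.27 and 2.59, with 37.7 CPM of H19 in aged CNV and 3.90 CPM in aged control columns.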

How the results depend on the processing

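With 1 library per group, depth limits the comparisons between libraries to counting error, and genes under 20 UMIs over both libraries were not compared. The share of fibroblast columns that were members, in aged CNV, aged control, young CNV and young control eyes, was 23.2, 41.5, 13.9 and 35.8% with at least 2 of the 5 genes, 12.3, 26.5, 5.92 and 17.5% with at least 4, and 10.9, 23.6, 9.10 and 20.3% after thinning to 2000 UMIs. With all columns as denominator it was 4.85, 7.52, 7.32 and 7.31%, the setting that changed the order in young eyes. In young CNV and young control eyes it was 14.3 and 34.9% with 4 gate genes, 16.5 and 33.8% without columns that held 3 or more markers of another type, and 9.42 and 27.9% without columns with at least 4 pericyte markers, an alternative chosen after seeing the data. Counts of genes at least 2-fold higher and lower were 343 and 503 (young laser) and 424 and 232 (aged laser) from 50 UMIs on, with 1003 higher for age after laser. With no filter they were 1040 and 1693, 1718 and 897, 1999 and 1853 (age of controls), and 2632 higher after laser. Without other types' columns they were 367 and 509 for young laser, 395 and 354 for aged laser, and 893 and 896 for age after laser. After thinning they were 242 and 380 for young laser, 344 and 316 for aged laser, and 859 and 809 for age after laser. Against other fibroblasts, counts higher and lower with no replicate block, which ignores that classes pair within a library, were 895 and 1112 (set A) and 671 and 665 (set C). Leaving out 1 library at a time gave 1121 to 1476 and 1353 to 1800 (set A), and 1247 to 1543 and 1267 to 1589 (set C); thinning gave 1148 and 1178 for set C. Of the 479 values of named genes against other fibroblasts under alternatives, 478 kept their call and 1 lost it with no replicate block. Of 360 values between libraries 311 moved by less than their interval, 49 moved more and 0 changed direction. TMM scaling shifted the median log2 ratio by -0.11 for age of controls and -0.14 for age after laser.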

Other observations

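Receptor and detoxification genes of the members were also compared with age, beside 8.16% of all genes higher and 8.06% lower in aged control members. Of 22 muscarinic, adrenergic, dopamine and peptide receptor genes measured, 7 were at least 2-fold higher and 5 at least 2-fold lower in aged control than in young control members; 4 and 1 of these were at no less than 0.1 of the level of the class with most. Of 26 lipid and detoxification genes, 3 were at least 2-fold higher and 8 lower, with a median log2 ratio of -0.47. At no less than 0.1 of the level of the class with most were 2 of the 3 and 2 of the 8. Chrm3, a muscarinic acetylcholine receptor, stood at 231 CPM in aged CNV, 181 in aged control, 48.2 in young CNV and 49.8 in young control members, high in both aged libraries. Ramp2, a partner of the adrenomedullin receptor, ran the other way, at 176, 158, 499 and 518 CPM in the same order. Endothelial markers were at least 2-fold lower in aged members for 4 of 6, both in control and in CNV eyes. The part of endothelial RNA in the Ramp2 levels was not tested. Gpx3, a secreted glutathione peroxidase and 1 of the 3 higher, stood at 495 and 359 CPM in aged CNV and aged control members and at 94.2 and 62.1 CPM in young CNV and young control members, 5.79-fold higher (5.22 to 6.44) in aged control than in young control members. The ratio was 1.68 in set A and 1.89 in set C fibroblasts.

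Cell cycle genes were also measured. Mki67, a proliferation marker, stood at 8.14 CPM in aged CNV, 0 in aged control, 19.7 in young CNV and 4.597 in young control members. Of the cell cycle genes measured, 8 of 14 were at least 2-fold higher in aged CNV than in aged control members. In young CNV against young control members it was 6 of 20, with 0 lower at either age. Over all genes, 5.93% were higher in aged and 3.88% in young CNV members. Without columns that held at least 3 markers of another cell type, the counts were 0 of 7 in aged and 3 of 12 in young eyes. With age, 11 of 16 were at least 2-fold lower in aged control than in young control members. Of these 11, only 2 were at no less than 0.1 of the level of the class with most. After laser 10 of 20 were lower in aged CNV than in young CNV members, 6 of them at no less than that level. In either age comparison 0 were higher, and the part of other cell types in these counts was not tested. Over all genes, 8.06% and 6.87% were lower in these 2 comparisons.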
